A study of Mus musculus with 6 samples.

Results

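Secreted Wnt modulators are extracellular proteins that dampen or strengthen Wnt signalling between cells. The genes described here were chosen by symbol and comprise 4 secreted Frizzled-related proteins (Sfrp1, Sfrp2, Sfrp4 and Frzb), 2 Dickkopf genes (Dkk2 and Dkk3), Wif1, and 3 R-spondins (Rspo1, Rspo2 and Rspo3). Earlier results of these data were known when they were chosen. Of these 10 genes, 9 had a row among the 15648 genes of the table, and Rspo2 was not analysed here. RNA came from the intermolar eminence, the raised part of the dorsal mouse tongue between the molars, of C57BL/6 embryos at E17.5. The labels give 3 WT libraries and 3 libraries with the genotype Fst-KO, a mutant of the gene for follistatin, a secreted binder of activins and some bone morphogenetic proteins. The allele is not described in the sources used here, nor whether a library came from 1 embryo or from several. The table holds 1 normalised mean per group, with no value per library and on a scale that is not given, so no standard deviation stands beside a mean, and the depth is unknown. Whether the scale corrects for gene length is not known either, so an order of means between genes is that of the table's values and not of transcript levels.

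Wnt ligands bind Frizzled receptors and the co-receptors Lrp5 and Lrp6, which stabilises beta-catenin and turns on target genes through TCF and LEF factors. Secreted Frizzled-related proteins carry a Frizzled-like cysteine-rich domain and, like Wif1, bind Wnt ligands outside the cell, while Dickkopf proteins of the Dkk1 and Dkk2 type bind the co-receptors. R-spondins act in the other direction: with Lgr receptors they withdraw the ubiquitin ligases Rnf43 and Znrf3, which otherwise remove Frizzled receptors from the cell surface. In the developing tongue, epithelial Wnt signalling is known for its part in the formation of taste papillae.

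Fst itself had a mean of 69.7 in the libraries labelled Fst-KO and 33.2 in WT per the authors' deposited table (ratio 2.10, FDR 0.0158). The targeted gene was thus higher where its label says knockout, a value over the whole gene does not show which exons were read, and every direction below is that of the labels. The span of the antisense gene Gm47040 overlaps an exon of Fst, and no source used here says if these libraries keep strand. The libraries, labelled tongue epithelium, also held RNA of other tissues: the WT means were 1182 for the fibrillar collagen gene Col1a1 and 4921 for the skeletal actin gene Acta1, beside 1538 for the basal keratin gene Krt5, per the authors' deposited table. Most genes had a somewhat higher mean in the libraries labelled Fst-KO: the median ratio of all genes, called the all-gene median below, was 1.14, and 81% of genes had a ratio above 1. Ratios relative to that median are given for the secreted Wnt modulators and for some of the lists. Unless another scale is named, other ratios are the deposited ones and still hold this general shift.

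None of the 9 genes passed the FDR of 0.05 taken as the test, from the authors' deposited table, against 0.0959% of all genes. An unadjusted p under 0.05 was reached by 5 that had a higher mean in the libraries labelled Fst-KO (Sfrp1, Sfrp2, Sfrp4, Dkk2 and Dkk3), that is 55.6% of the 9 against 13.4% of all genes in that direction, and by 0 with a lower mean against 2.17% of all genes. Since the members were chosen with earlier results of these data known, these shares are a description and not a test. A ratio above 1 was found for 8 of the 9 (88.9%), against 81% of all genes, and 6 of the 9 lay above the all-gene median. Frzb, Wif1, Rspo1 and Rspo3 did not reach that p. The ratios ran from 0.885 for Frzb to 1.82 for Sfrp4 with a median of 1.34, or 1.18 relative to the all-gene median. On that relative scale Sfrp4 stood at 1.60, Dkk2 at 1.54, Sfrp1 at 1.51, Sfrp2 at 1.34 and Dkk3 at 1.18. A ratio of 1.5 or more was found for 4 of the 9 (Sfrp1, Sfrp2, Sfrp4 and Dkk2) and for 5.5% of all genes.

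**Figure D1:**
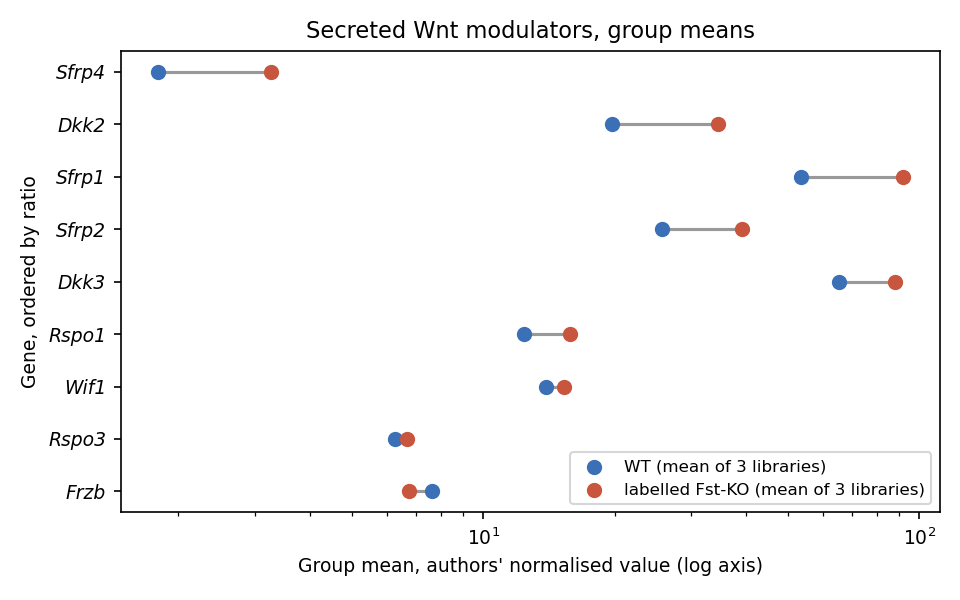
Group means of the 9 measured secreted Wnt modulators as the authors' normalised values on a log axis, with WT in blue and the libraries labelled Fst-KO in red. Each point is the mean of 3 libraries with no error available. Frzb is the single gene whose red point lies to the left of the blue one.

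Among the secreted Frizzled-related proteins, Sfrp1, which binds Wnt ligands and also Frizzled receptors, had the lowest p of the 9. Its mean was 91.5 in the libraries labelled Fst-KO and 53.5 in WT, a ratio of 1.71 with an unadjusted p of 0.000927 and an FDR of 0.175 per the authors' deposited table. It ranked 83 of 15648 genes by p and 406 by ratio. Its place on mm10 is chromosome 8, plus strand, 23411502 to 23449632, with 3 exons and no overlapping gene in GENCODE M21. Sfrp2, a close relative of Sfrp1 expressed in many embryonic mesenchymes, had means of 39.2 and 25.7, a ratio of 1.52 (unadjusted p 0.0118, FDR 0.291 per the authors' deposited table). It lies on chromosome 3 from 83766321 to 83774316, where the span of the antisense gene Gm26771 overlaps an exon of Sfrp2. The exons of Gm26771 itself were not compared. Where exons of such a pair overlap, reads are told apart only by strand, and no source used here says if these libraries keep strand.

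Sfrp4 had the highest deposited ratio of the 9 at 1.82, from the lowest means of the 9: 3.26 in the libraries labelled Fst-KO and 1.79 in WT (unadjusted p 0.023, FDR 0.301 per the authors' deposited table). Its mean over both groups lay at percentile 11.3 of all genes, and its ratio was 1.53 once a pseudocount of 1 was added and 1.12 with one of 10. On both of these scales it ranked below Sfrp1 and Dkk2, and with the pseudocount of 10 also below Sfrp2, Dkk3 and Rspo1 (1.38, 1.30 and 1.15). It lies on chromosome 13 from 19623104 to 19632994, the chromosome that also carries Fst at 114452290 to 114458951. Frzb, also called Sfrp3 and known from cartilage and limb mesenchyme, stood on the other side, with means of 6.75 and 7.63 and a ratio of 0.885 (unadjusted p 0.267, FDR 0.465 per the authors' deposited table). Relative to the all-gene median its ratio was 0.779. Its position is chromosome 2 from 80411970 to 80447625 on the minus strand. Of this family, 3 of 4 genes thus had an unadjusted p under 0.05, and the difference between Frzb and the other 3 was not tested.

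Dkk2, a ligand of Lrp5 and Lrp6 that inhibits or, in some settings, weakly activates Wnt signalling, had means of 34.5 in the libraries labelled Fst-KO and 19.7 in WT. Its ratio of 1.75 had an unadjusted p of 0.00701 and an FDR of 0.279 per the authors' deposited table. Sfrp1 and Dkk2 were the 2 genes of the 9 with an unadjusted p under 0.01, which 2.7% of all genes had in this direction. Dkk3, a divergent member whose action on Wnt signalling depends on context, had means of 87.9 and 65.5 and a smaller ratio of 1.34 (unadjusted p 0.0141, FDR 0.293 per the authors' deposited table). Dkk2 lies on chromosome 3 from 132085292 to 132180304 and Dkk3 on chromosome 7 from 112116017 to 112159057, and neither overlaps another gene.

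Wif1, which holds Wnt ligands in the extracellular matrix through its WIF domain, had means of 15.3 in the libraries labelled Fst-KO and 13.9 in WT (ratio 1.10, unadjusted p 0.546 per the authors' deposited table). Relative to the all-gene median this ratio was 0.970, so its direction turned with the scaling. Wif1 lies on chromosome 10 from 121033960 to 121100650.

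The R-spondins, the members that strengthen Wnt signalling, had smaller ratios than 5 of the 7 other members. Rspo1 had means of 15.8 in the libraries labelled Fst-KO and 12.4 in WT, a ratio of 1.27 (unadjusted p 0.0847, FDR 0.335 per the authors' deposited table) and of 1.12 relative to the all-gene median. Rspo3 had means of 6.67 and 6.27, a ratio of 1.06 (unadjusted p 0.671, FDR 0.783 per the authors' deposited table), and stood at 0.936 relative to that median. An unadjusted p under 0.05 was reached by 5 of the 7 other members and 0 of 2 R-spondin genes, where 13.4% of all genes had one with a higher mean. With 2 genes a count of 0 shows little, and the difference was not tested. Rspo1 lies on chromosome 4 from 124986430 to 125009099 and Rspo3 on chromosome 10 from 29452416 to 29535867. The span of an antisense gene overlaps an exon of each, Gm12930 and Gm48159.

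**Figure D2:**
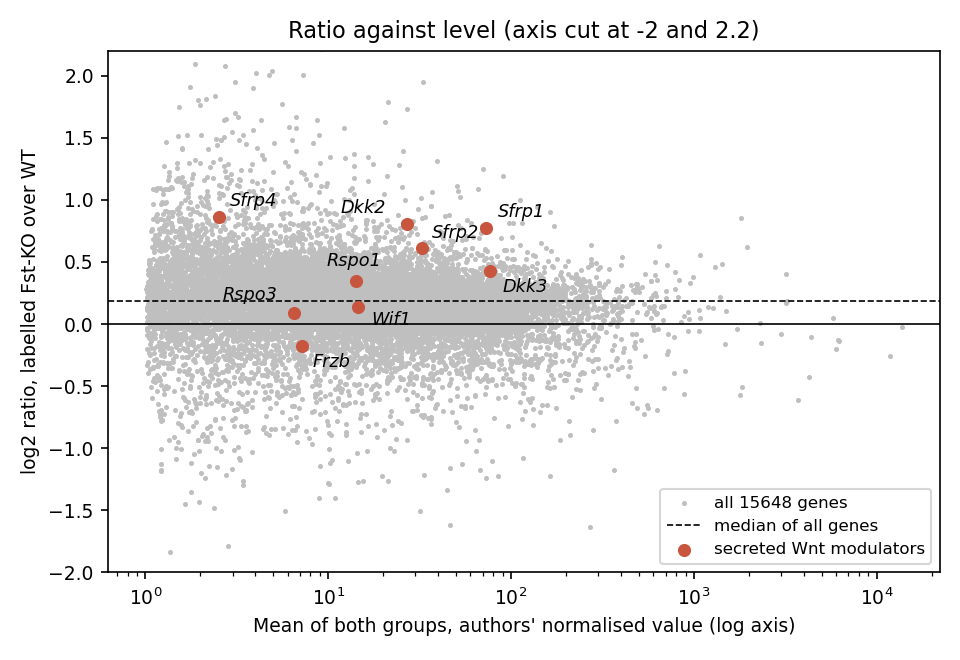
The log2 ratio of each gene, libraries labelled Fst-KO over WT, against its mean over both groups on a log axis, with all 15648 genes in grey and the secreted Wnt modulators in red. The dashed line is the median of all genes (0.18). Sfrp1, Sfrp2, Sfrp4 and Dkk2 lie above 0.6 and Frzb below 0, while Wif1 and Rspo3 lie between 0 and the dashed line. The axis leaves out 22 genes with ratios beyond its ends.

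For a view of the DNA in front of these genes, RefSeq start sites (GRCm38.p6) gave windows for 5 of the 10 (Sfrp2, Dkk2, Frzb, Wif1 and Rspo1), and 1 from each of 3 families is printed, the 250 bases before the start, 5′ to 3′ on the strand of the gene. They are shown because their genes had ratios of 1.75, 1.52 and 1.27. Capitals mark matches, on either strand, to the TCF/LEF cores CTTTGA and CTTTGT, the SMAD palindrome GTCTAGAC, the GC element of BMP SMADs GGCGCC, the GLI site GACCACCCA and the TATA box TATAAA.
Dkk2, chr3:132085042-132085291, plus strand: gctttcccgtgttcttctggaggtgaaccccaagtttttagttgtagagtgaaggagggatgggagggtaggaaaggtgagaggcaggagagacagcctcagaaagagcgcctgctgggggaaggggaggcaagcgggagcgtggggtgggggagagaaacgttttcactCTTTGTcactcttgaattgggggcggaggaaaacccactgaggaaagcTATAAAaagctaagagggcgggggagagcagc
Sfrp2, chr3:83766071-83766320, plus strand: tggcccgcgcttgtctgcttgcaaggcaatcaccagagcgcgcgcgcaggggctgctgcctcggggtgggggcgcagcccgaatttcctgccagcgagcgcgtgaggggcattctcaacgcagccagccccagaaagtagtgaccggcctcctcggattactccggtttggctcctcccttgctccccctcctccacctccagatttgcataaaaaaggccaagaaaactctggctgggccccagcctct
Rspo1, chr4:124986180-124986429, plus strand: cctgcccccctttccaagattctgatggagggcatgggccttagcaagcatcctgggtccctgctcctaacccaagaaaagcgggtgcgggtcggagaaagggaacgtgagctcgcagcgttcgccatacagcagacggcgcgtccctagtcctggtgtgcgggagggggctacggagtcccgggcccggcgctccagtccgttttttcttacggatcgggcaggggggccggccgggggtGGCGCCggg
The Dkk2 window held CTTTGT, beginning 80 bases before the start, and TATAAA, beginning 32 bases before it. The Sfrp2 window held none of the 6, and that of Rspo1 held GGCGCC, 9 bases before the start. In the windows not printed, Frzb held CTTTGA on the opposite strand, 95 bases before the RefSeq start, and Wif1 held TATAAA on the opposite strand, 232 bases before it. Both of these windows overlap the GENCODE span given above for their gene, and the Frzb match lies within that span. No match overlapped another. Among 13344 windows of the same length for genes in the table, CTTTGT was found in 12.2%, CTTTGA in 10.4%, GGCGCC in 16.6%, TATAAA in 6.92%, GTCTAGAC in 0.18% and GACCACCCA in 0.202%. The matches were thus of kinds found in many windows, and no factor's binding was measured.

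The rest of the Wnt pathway was measured for 71 of 84 listed genes. None passed an FDR of 0.05 per the authors' deposited table, 14 (19.7%, against 13.4% of all genes) had a higher and 0 (against 2.17%) a lower mean with an unadjusted p under 0.05, and their median ratio of 1.14 equalled that of all genes to 2 decimals. The secreted modulators' own median of 1.34 lay above it, but they were chosen with earlier results of these data known.

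**Figure D3:**
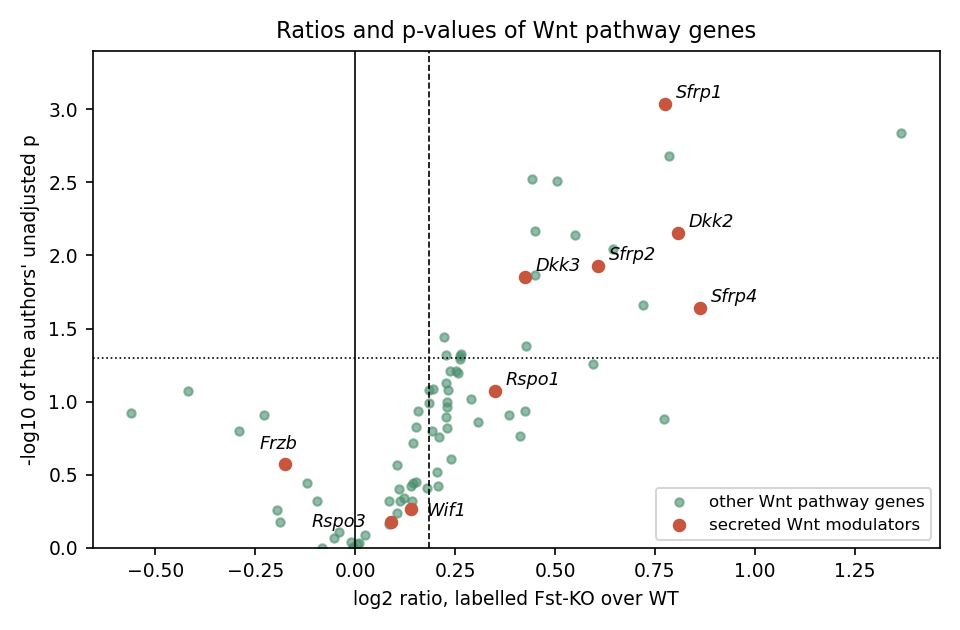
Each measured Wnt pathway gene by its log2 ratio, libraries labelled Fst-KO over WT, and the -log10 of the authors' unadjusted p, with the secreted Wnt modulators in red and the other pathway genes in green. The dotted line is a p of 0.05 and the dashed line the median of all genes. Sfrp1 is the highest point, and the green point at the far right is Lgr5.

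Of 12 further secreted modulators, 6 were measured, all with a ratio above 1 (against 81% of all genes) and a median of 1.22. Cthrc1, a secreted protein that helps Wnt ligands engage Ror2, had means of 17.7 in the libraries labelled Fst-KO and 10.3 in WT (ratio 1.72, unadjusted p 0.00207, FDR 0.214 per the authors' deposited table). It was the single gene of the 6 with an unadjusted p under 0.05 (16.7%, against 13.4% of all genes with a higher mean). Those with the highest means were Igfbp4, an IGF-binding protein that also inhibits Wnt receptors, at 1.196, and Sostdc1, an inhibitor of BMP and Wnt signals in tooth and papilla epithelium, at 1.02 per the authors' deposited table. Sostdc1 lay below the median of all genes.

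Of 19 Wnt ligands, 13 were measured, with a median ratio of 1.18, and an unadjusted p under 0.05 was found for 4 with a higher mean (30.8%, against 13.4% of all genes) and 0 with a lower one (against 2.17%). These were Wnt10b at 1.65, Wnt11 at 1.46, Wnt9a at 1.37 and Wnt5b at 1.34 per the authors' deposited table. Their FDRs lay between 0.279 and 0.317. Wnt10b acts mainly through beta-catenin, and Wnt11 and Wnt5b mainly through other routes. Porcn and Wls, which lipid-modify Wnt ligands and carry them to the surface, stood at 1.15 and 1.17, neither with such a p, per the authors' deposited table.

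Frizzled receptors, the partners that secreted Frizzled-related proteins resemble, were all measured and had a median ratio of 1.09 over 10 genes, which is 0.962 relative to the all-gene median. Fzd1 at 1.37 and Fzd2 at 1.17 had an unadjusted p under 0.05 per the authors' deposited table (20%, against 13.4% of all genes with a higher mean). Relative to the all-gene median they stood at 1.20 and 1.03. Of 8 co-receptors and Dickkopf receptors (median 1.17), Ror1 at 1.42 and Ror2 at 1.20 had such a p per the authors' deposited table (25%, against 13.4%). Lrp5, Lrp6, Kremen1 and Kremen2, the receptors that Dickkopf proteins use, were among the other 6, with ratios of 1.17, 1.14, 1.17 and 1.33 per the authors' deposited table, and were named after their values were seen.

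The receptors of R-spondins and their ligases had a median ratio of 1.18 over 5 genes. Lgr5, an R-spondin receptor of epithelial stem cells, had means of 19.98 in the libraries labelled Fst-KO and 7.75 in WT, a ratio of 2.58 (unadjusted p 0.00145, FDR 0.201 per the authors' deposited table). The highest means among the others were those of Lgr4 at 1.20 and the ligase gene Znrf3 at 1.18, both without such a p per the authors' deposited table. Its ligands Rspo1 and Rspo3 had ratios of 1.27 and 1.06, and the difference from Lgr5 was not tested.

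Among 17 genes of transduction within the cell the median ratio was 1.14, and 3 had an unadjusted p under 0.05, a share of 17.6% near the 13.4% of all genes. These were the TCF factor genes Tcf7 at 1.56, Tcf7l2 at 1.36 and Tcf7l1 at 1.17 per the authors' deposited table. The Wnt target genes had a median of 1.09 over 16 of 18 genes, 0.962 relative to the all-gene median. Lgr5, Tcf7 and Cd44 (1.199 per the authors' deposited table) were the 3 targets with an unadjusted p under 0.05 (18.8%, against 13.4% of all genes with a higher mean). A ratio above 1 was found for 11 of the 16 and below 1 for 5, where 81% of all genes had a ratio above 1. The feedback target Axin2, named after its value was seen, had a ratio of 1.14 (unadjusted p 0.159 per the authors' deposited table).

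**Figure D4:**
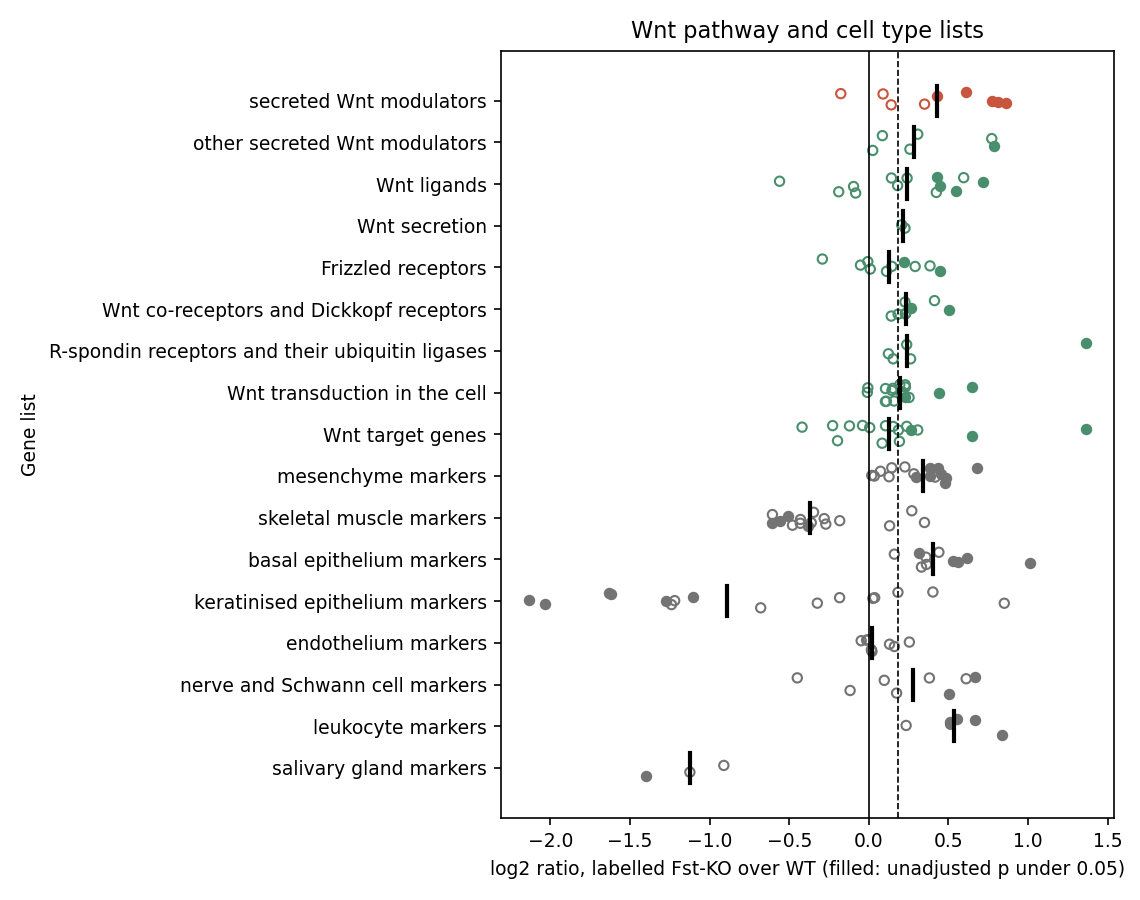
Log2 ratios, libraries labelled Fst-KO over WT, of the genes in each Wnt pathway list and cell type marker list, with filled points for an unadjusted p under 0.05 and a black bar at each list's median. The solid line is 0 and the dashed line the median of all genes. The secreted Wnt modulators, in red, have the highest median of the Wnt lists, and the medians of keratinised epithelium, skeletal muscle and salivary markers lie to the left of 0.

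Markers of several cell types had ratios away from 1 in the same comparison, although none passed an FDR of 0.05. All 16 mesenchyme markers had a ratio above 1, against 81% of all genes, with a median of 1.26. Of them, 8 were past an unadjusted p of 0.05 (50.0%, against 13.4% of all genes with a higher mean). Their summed level was 8728 in the libraries labelled Fst-KO and 6895 in WT. Basal epithelium markers had a median ratio of 1.32 over 10 genes (summed level 5820 and 4110) and leukocyte markers 1.45 over 6 (50.7 and 34.05), with 5 and 4 higher at that p. Nerve and Schwann cell markers had a median of 1.21 over 8 genes (169 and 156) and endothelium markers 1.01 over 8 (249.7 and 247), with 2 and 0 higher at that p. On the lower side, skeletal muscle markers had a median of 0.773 over 16 genes (12658 and 17070), keratinised epithelium markers 0.539 over 16 (10725 and 9186) and salivary gland markers 0.459 over the 3 measured of 8 (7.48 and 17.995). With a lower mean at that p there were 4 skeletal muscle, 6 keratinised epithelium and 1 salivary gland marker, against 2.17% of all genes. The keratinised list thus had a low median and a higher sum, with 11 of its 16 genes below 1 and 5 above, against 81% of all genes above 1. Krt4, Krt13 and Krt6a, the 3 genes with its highest means, stood at 1.80, 1.32 and 1.14 per the authors' deposited table. The list's name need not hold for each of its genes, so its higher sum is not a statement about keratinised epithelium.

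Relative to the median of the mesenchyme markers, the ratios were 1.44 for Sfrp4, 1.39 for Dkk2, 1.35 for Sfrp1, 1.21 for Sfrp2, 1.06 for Dkk3 and 1.01 for Rspo1. Those of Wif1, Rspo3 and Frzb were 0.872, 0.842 and 0.70. Sfrp1, Sfrp4 and Dkk2 had a higher ratio than any of the 16 mesenchyme markers, whose ratios ran from 1.01 for Col6a3 to 1.60 for Thy1. With a pseudocount of 1 this held for Sfrp1 and Dkk2, while Sfrp4 stood at 1.53 and Thy1 at 1.55. The upper end thus rests on Thy1: the next mesenchyme marker was Col1a1 at 1.40, and Sfrp2 at 1.52 lay above it too. Among all genes, 5.5% had a ratio of 1.5 or more. Some other marker lists held genes with higher ratios. The basal epithelium marker Epcam had a ratio of 2.02, above every secreted Wnt modulator. Krt4 of the keratinised list at 1.80 and Lyz2 of the leukocyte list at 1.78 lay above Dkk2 and Sfrp1. Dkk3 and Rspo1 lay close to the mesenchyme median. In these bulk libraries more cells of a type and more RNA per cell cannot be told apart, and the part of tissue makeup in these ratios was not tested.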

How the data were processed

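RNA libraries of the intermolar eminence at E17.5 (3 WT, 3 Fst-KO) were grouped by their titles. Alignment to mm10 used BWA 0.7.12, with Partek for the later steps, per the submitters' processing notes. The design text of the series names Partek's gene-specific analysis as the test. Annotation, counting, normalisation and test settings are not given in these sources. BWA is not a spliced aligner, and reads across exon junctions may be missing from every library.

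The deposited group means are a normalised signal, per the file headers least-squares means. The deposited ratio divides the mutant mean by the WT mean, as checked for all 15648 genes. The deposited p-values and FDR were used as the authors' test. Recomputing Benjamini-Hochberg values from the p-values gave the deposited FDR of each of 15648 genes (relative tolerance 1e-06). The deposited column of totals equalled 3 times the sum of both means. The group called mutant was taken as Fst-KO. The authors' signed fold change, another form of the ratio, was not used.

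Ratios, medians and counts were computed in Python 3.11.15 (pandas 2.3.3), and the adjustment was tested on simulated data. Since the labels name no separate animals, a p-value reflects the spread among 6 libraries, possibly a technical one. An exact permutation test of 3 against 3 libraries could not go below 0.1. The smallest geometric mean of both groups was 1.01, so genes low in both may be missing. Genes named were all members with a row, Fst, and from each pathway list up to 4 genes past an unadjusted p of 0.05, largest ratio differences first, or, failing 2 such genes, the 2 with the highest means. Named outside this rule, after their values were seen, were Gm genes that overlap a member or Fst, Col1a1, Acta1, Krt5, Krt4, Krt13, Krt6a, Thy1, Col6a3, Epcam and Lyz2 from the marker lists, and the genes marked so in the text. The members and lists were chosen with earlier results of these data known. Alternatives were other thresholds, pseudocounts, scalings and a filter on low means. Positions are from GENCODE M21 (GRCm38, the assembly of mm10) and promoters from RefSeq (GRCm38.p6).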

Additional observations from a re-analysis of the deposited data

How the results depend on the processing

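The count of members past the FDR was also 0 at an FDR of 0.1. Adjusted over the 7824 genes at or above the median mean (16.1), 0 of the 4 members among them passed, and the other 5 could not enter. At an unadjusted p under 0.01, 2 members passed in place of 5. The members' median log2 ratio of 0.42 was 0.20 with a pseudocount of 10, 0.24 relative to the median of all genes, 0.30 with equal sums without the most abundant 156 genes, 0.69 over the 4 abundant members and, by a scaling chosen after seeing the data, 0.087 relative to the mesenchyme markers. A pseudocount of 1, equal sums or the mean moved it by less than 0.1. Frzb stayed below 0 and Sfrp1, Sfrp2, Sfrp4, Dkk2, Dkk3 and Rspo1 above 0 under these pseudocounts and scalings. Wif1 turned to -0.044 relative to all genes and -0.20 relative to the mesenchyme markers. Rspo3 turned to -0.095 and -0.25 on these scales, to -0.00048 with equal sums and to -0.036 with equal sums without the most abundant genes. The medians of Frizzled receptors and Wnt target genes turned to -0.056 and -0.055 relative to all genes. These turns follow from subtracting a value larger than the ratio. No paired analysis was possible because the table holds no value per library, and leaving out a replicate was not possible for the same reason. Depth is unknown, so precision at low means could not be judged.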
